A study of Bos taurus with 16 samples.

Results

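Collagens, laminins, integrins and the proteases that cut the extracellular matrix were represented by 94 genes and 1775 CpG sites, of 10781 named genes and 199395 sites in the endometrial methylation data. The members were autosomal sites with a gene symbol of the collagen form (COL, a number, A, a number) or a symbol that began with LAMA, LAMB, LAMC, ITGA, ITGB, ADAMTS, MMP or TIMP, without ITGB2. The symbol alone decided membership, but the gene families were chosen with earlier results of these data known. A gene mean was calculated for the 87 members with 2 or more sites, which were tested among 8719 genes of that kind. The remaining 7 members had 1 site each and were tested as sites only. The letters of the symbol also brought in ITGB1BP1, a cytoplasmic protein that binds an integrin tail and is not itself an integrin.

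Reduced representation bisulfite sequencing (RRBS), which reads cytosine methylation in CpG-rich fragments, was done on 16 libraries of endometrial cytobrush cells from postpartum dairy cows. CON cows received the control diet and MET cows received rumen-protected methionine (RPM), a methionine product shielded from breakdown in the rumen, from day 12 after calving. All cows had come into heat and were inseminated on day 50 to 64, and the cells were brushed from the uterine lining 4 to 8 h later. P and noP denote cows in which that insemination did or did not result in pregnancy, so the outcome was known only after sampling. The groups CON_P, CON_noP, MET_P and MET_noP had 4 libraries each. The study isolated DNA from more cytobrush samples than there were libraries, with more from each noP group than from each P group. The number of cows in a library is not stated. The spread between libraries may therefore not be a spread between single cows, and any pooling may have differed between outcomes. Cows were assigned to diets in pairs matched on expected calving date, parity and earlier milk yield. The labels do not give the pairs, so the diets were compared without pairing. A brush takes a mixture of cells, in which a different share of a cell type and a different methylation within cells cannot be told apart. RRBS gives no expression, so the labelled tissue was not checked against expressed markers.

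Collagen chains assemble into triple helices. Fibrillar collagens give tissue its tensile strength, whereas collagen IV and the three-chain laminins form the basement membrane under the uterine epithelium. Integrins are receptors of 1 alpha and 1 beta subunit that tie cells to this matrix, and several of them change on the uterine epithelium around the time of embryo attachment. Matrix metalloproteinases (MMPs) and ADAMTS proteases cut or mature matrix proteins and TIMPs inhibit them, and this turnover accompanies both the repair of the uterus after calving and the oestrous cycle. Methylation of CpG sites near a gene's start is generally low in genes that can be transcribed, while the sites inside a gene are often highly methylated.

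The values were the percent methylation of each site in each library, from 1% to 100%. Positions at zero in a library had been discarded by the authors, so fully unmethylated sites are missing from every gene below. Over all genes, the mean of the gene means was between 59.1% and 61.9% in the 16 libraries, and the mean of the 87 members lay between 65.7% and 68.8%. The number of reads behind a percentage is unknown beyond the authors' minimum, so no interval was given for a single site. The paper reports the highest average numbers of raw reads and of mapped CpGs in MET_P, so sequencing depth differed between groups. Bases left after adapter removal were highest in MET_noP. The part of depth in the group values and in their spread was not tested.

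The matrix and integrin genes were highly methylated, and the MMP and TIMP genes had lower median gene means than the collagens and laminins. Of the 1775 sites, 61.6% had a mean above 80% and 9.30% had a mean below 20%, compared with 54.5% and 15.8% of the 121988 autosomal sites with a named gene. The median of the gene means was 74.0% for the 87 members and 69.0% for all 8719 genes. These shares are descriptions, because neighbouring sites of a gene are not independent. The median gene mean was 87.9% in the 13 other collagens, 84.5% in the 4 basement membrane collagens, 82.1% in the 7 laminins and 81.4% in the 8 fibrillar collagens. It was 75.9% in the 15 integrin alpha subunits, 73.7% in the 15 ADAMTS proteases and 73.1% in the 5 ADAMTS-like proteins, which resemble ADAMTS enzymes but lack the protease domain. The lowest medians were those of the 6 genes with an ITGB symbol (47.3%), the 2 TIMP genes (47.2%) and the 12 MMP genes (41.8%). The ITGB symbols include ITGB1BP1 (5.74%) and ITGBL1 (27.3%), which are not integrin subunits. The beta subunits ITGB3, ITGB4, ITGB5 and ITGB6 had means of 34.8%, 59.8%, 75.5% and 94.4%. Of the sites of the MMP genes, 33.3% were below 20%, against 1.19% of the sites of the basement membrane collagens.

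**Figure D1:**
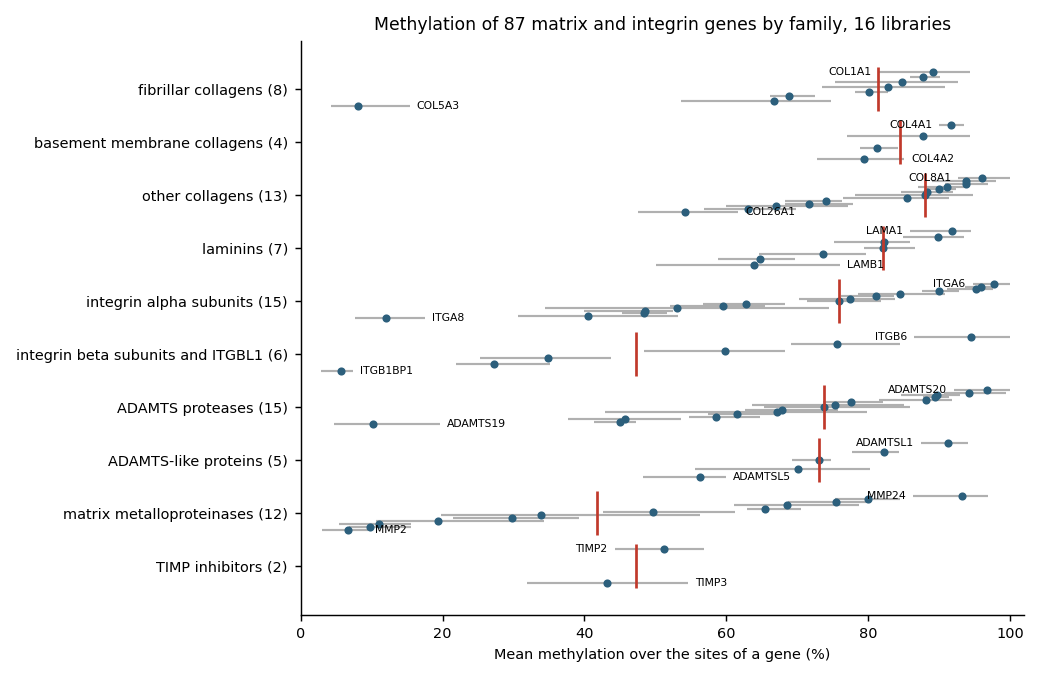
Mean methylation over the sites of each of the 87 genes with 2 or more sites (x axis, percent), by family (y axis, number of genes in brackets). Points are means over 16 libraries, grey lines run from the lowest to the highest library and red bars are family medians. The MMP genes reach from 6.66% to 93.1%, whereas the lowest of the 7 laminins is at 63.9%.

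Within the collagens, COL8A1 (96.1% ± 1.90, SD over 16 libraries, 13 sites), a short-chain collagen of vessel walls and membranes, had the highest mean among the members with 5 or more sites outside the fibrillar and basement membrane types. COL26A1 (54.2% ± 3.97, 18 sites) had the lowest. Among fibrillar collagens, COL1A1 was at 89.1% ± 3.28 and COL1A2 at 66.8% ± 5.99, although the 2 chains join in the same collagen I molecule. COL5A3, a chain of collagen V with 4 sites, was at 8.14% ± 2.77 and was the only fibrillar collagen gene with a mean below 20%. COL4A1 (91.7% ± 1.01, 73 sites) and COL4A2 (79.4% ± 3.31, 90 sites), which encode the main collagen IV chains and lie side by side on chromosome 12, were the highest and lowest of the 4 basement membrane collagens with 2 or more sites. The group means of COL4A1 lay between 91.4% and 92.0% and those of COL4A2 between 78.7% and 80.2%.

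Among the receptors, ITGA6 (97.6% ± 1.52, 6 sites), the alpha chain of the laminin receptor of epithelia, and ITGA8 (12.1% ± 3.05, 5 sites) were the extremes of the alpha subunits. In both genes the sites lay within 1 short stretch, of 44 and 60 bases, so neither value describes the whole gene. ITGB5 had the highest mean (75.5% ± 3.79, 15 sites) and ITGBL1, a secreted protein with integrin-beta-like repeats, the lowest (27.3% ± 3.24, 14 sites) among the ITGB symbols with 5 or more sites. Among the laminins LAMA1 was at 91.8% ± 2.20 and LAMC3 at 64.8% ± 3.60.

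The low end of the proteases was made up of genes that were measured over few or closely spaced sites. MMP2 (6.66% ± 1.78, 2 sites) and MMP9 (9.79% ± 2.85, 5 sites), the gelatinases, and MMP14 (11.1% ± 2.27, 6 sites), a membrane-bound activator of MMP2, had every measured site below 20%. MMP7, the small epithelial metalloproteinase, had a mean of 19.4% ± 6.70 over 15 sites within 175 bases. The opposite end was held by MMP24 (93.1% ± 2.88, 4 sites) and MMP16 (79.9% ± 2.90, 10 sites), both membrane-type MMPs. The ADAMTS proteases ranged from ADAMTS19 (10.2% ± 4.81, 2 sites) to ADAMTS20 (96.8% ± 2.37, 3 sites). With 5 or more sites the ends were ADAMTS16 (44.96% ± 1.66) and ADAMTS10 (89.7% ± 1.95). The inhibitors TIMP2 and TIMP3 were at 51.2% ± 3.89 and 43.2% ± 6.13.

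A gene mean joined sites of very different levels. With sites no more than 200 bases from the next counted as 1 stretch, the 94 members had 455 stretches, of which 62 had a mean below 20%, 125 lay between 20% and 80% and 268 were above 80%. In 35 of the 94 members at least 1 site was below 20% and at least 1 above 80%. By contrast, 11 of the 87 members with 2 or more sites had all of their sites above 80% and 7 had all of them below 20%.

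The integrin alpha 11 chain ITGA11, a collagen receptor of fibroblasts, had the widest range of site means among the alpha subunits, from 6.10% to 98.9%. Its first 12 sites in coordinate order (chromosome 10, from position 15129938 to 15189608, ARS-UCD1.2) lay in stretches of 73.7% to 98.1%, and its last 5 sites (15261095 to 15262131) in stretches of 6.19% to 10.8%. ITGA4, a fibronectin and VCAM1 receptor chain, had 3 sites at 93.2% and, from position 15174772 to 15174838 of chromosome 2, 5 sites at 21.8%. ITGA1 had 5 sites at 95.8% and, 105 kb away, 1 site at 7.57%. MMP16 had 1 site at 7.37% and 9 others in stretches of 79.2% to 93.9%. Whether these low stretches lie at a promoter, in an exon or in an intron was not analysed here, because no annotation of the same build was used.

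COL5A1, the main collagen V chain, held 255 of the 1775 sites, in 56 stretches over 142317 bases of chromosome 11. Its mean was 80.03% ± 1.54, and 37 stretches were above 80%, 16 between 20% and 80% and 3 below 20%. The first 2 sites, 0.375 kb apart (positions 105268455 and 105268830), were at 16.3% and 9.43%, and the third low stretch lay 96.04 kb from the first site (11.6%, 2 sites). An intermediate stretch, named after its values were seen, varied more between libraries than the low ones. Its 6 sites from 105339484 to 105339568 had a mean of 34.2% with an SD of 12.9 between the 16 libraries, compared with SDs of 4.85, 5.38 and 4.82 in the 3 low stretches. Other genes with many sites had the same make-up in different proportion. All but 2 of the 22 stretches of COL4A1 were above 80%, as were 13 of 18 in COL18A1, the gene of the endostatin precursor, and 15 of 18 in COL27A1. ADAMTS13, which cuts von Willebrand factor, had 4 of 10 stretches above 80% and none below 20%, and ITGB4, the beta chain of hemidesmosomes, had 6 of 14 above 80%.

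A few members varied widely between libraries. The SD between the 16 libraries had a median of 3.05 points over the 87 members and 2.99 over all genes. It was 11.2 in ADAMTS7, 10.7 in MMP20 and 10.7 in ITGAL, and in MMP7 it was 6.70. ADAMTS7, a protease that cuts the cartilage protein COMP, was measured at 20 sites within 321 bases of chromosome 21. Library 25 of MET_noP (43.0%) and library 16 of CON_noP (44.7%) had the lowest ADAMTS7 values, and the other 14 libraries lay between 56.8% and 79.8%. MMP20 and MMP7 are both on chromosome 15. MMP20, the enamel metalloproteinase, was highest in library 14 of CON_P (56.3%) and library 25 of MET_noP (49.6%) and lowest in library 30 of CON_P (19.8%). MMP7 was highest in library 25 (34.3%), followed by libraries 14 and 31 (both 27.3%), and was lowest in library 30 (10.6%). Libraries 14 and 25 also had the highest mean over 13 epithelial marker genes (39.9% and 39.2%), whose range over the other 14 libraries was 28.3% to 36.9%. The mean over 21 leukocyte marker genes was 60.7% in library 14 and 56.7% in library 25, with 53.8% to 58.4% in the others, and that over 15 stromal and vessel marker genes lay between 52.3% and 54.5% in all libraries. The part of cell makeup in these values was not tested.

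**Figure D2:**
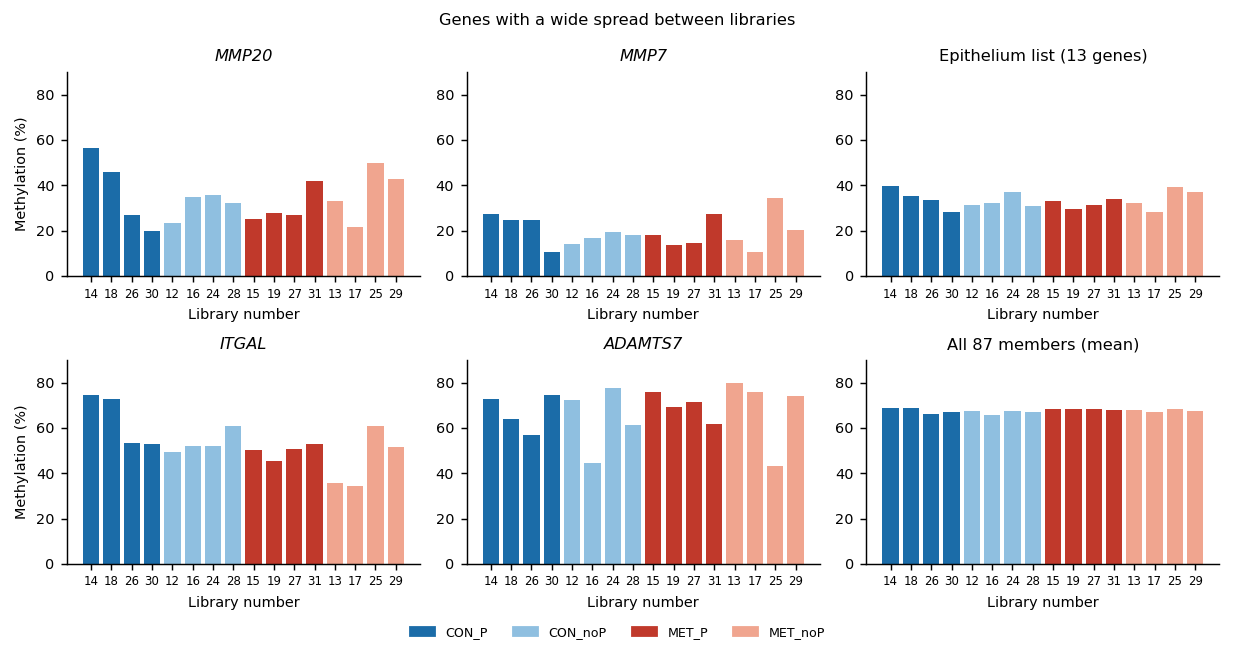
Mean methylation (y axis, percent) of 4 genes with a wide spread, of 13 epithelial marker genes and of the 87 members in each library (x axis, library number, bars coloured by group). Libraries 14 and 25 hold the highest bars for MMP20 and the epithelial list, while the mean of all members stays between 65.7% and 68.8%.

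In the 4 pairwise comparisons of groups, 74 to 82 of the 87 members differed by less than 5 points. The largest difference was 13.4 points, in ITGAL. No member passed an adjusted p of 0.05 in any of the 4 pairwise comparisons, in the 2 comparisons pooled over outcome or diet, or in the interaction of diet and outcome (limma, Benjamini-Hochberg over 8719 genes), and none of the 8719 genes passed (0% called in each). The lowest adjusted p of a member was 0.505, in MET against CON over both outcomes. With 4 libraries per group and no gene called, the absence of a call does not show that a gene was equal between groups. The counts of members at an unadjusted p under 0.05 were 1, 5, 10 and 2 of 87 in CON_P against CON_noP, MET_P against MET_noP, MET_P against CON_P and MET_noP against CON_noP. They are given with the share of all genes at that p in each comparison below. Counts after centring or without a library are given without the share of all genes or sites. A shift of all genes is then not told apart from one of the members. The 4 pairwise comparisons share libraries, because each group enters 2 of them, and their values are therefore set side by side without a test of their likeness.

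**Figure D3:**
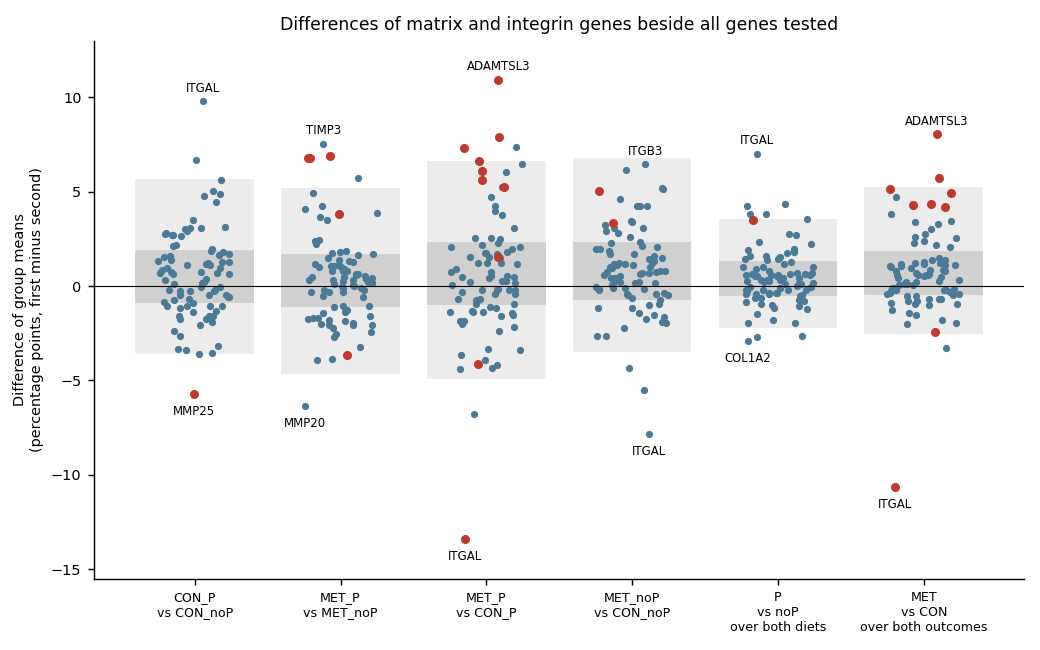
Difference of group means (y axis, percentage points, first group minus second) of each of the 87 genes in 6 comparisons (x axis). Points are genes, red where the unadjusted limma p was under 0.05, and the grey boxes hold the middle 90% and 50% of all 8719 genes. The largest difference is that of ITGAL between MET_P and CON_P, 13.4 points lower in MET_P.

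In cows on the control diet, the question was whether the endometrium at insemination differed between those that became pregnant and those that did not. The median difference of the 87 members was 0.651 points (CON_P minus CON_noP), beside 0.438 points over all genes, and 82 members differed by less than 5 points. MMP25, a membrane-anchored MMP of neutrophils, was the only member with an unadjusted p under 0.05 (1.15% of members, beside 3.5% of all genes, 2.16% higher and 1.34% lower in CON_P). Its methylation was 27.8%, 27.7%, 21.4% and 22.4% in the CON_P libraries and 30.2%, 30.4%, 34.6% and 26.98% in the CON_noP libraries. The groups overlapped, with a difference of 5.72 points lower in CON_P (24.8% ± 3.42 against 30.6% ± 3.14, SD, n = 4 each, limma p = 0.0479, adjusted p = 0.9998, two-sided exact permutation p = 0.0857). MMP25 was at 32.2% ± 4.74 in MET_P and 31.8% ± 1.89 in MET_noP. The gene with the largest difference, ITGAL, was 9.80 points higher in CON_P, but 2 of the CON_P libraries (74.5% and 72.7%) stood apart from the other 2 (53.1% and 52.8%), which lay inside the range of CON_noP. ITGBL1 was the only member whose groups did not overlap, 26.03% to 27.7% in CON_P and 21.9% to 26.01% in CON_noP (1 of 87, beside 1.95% of all genes). The count of 1 at the unadjusted p became 0 without library 12, 16 or 26, 3 without library 14 and 5 without library 30.

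In cows that received RPM, 5 members had an unadjusted p under 0.05 between pregnant and non-pregnant outcomes, 4 of them higher in MET_P (5.75% of members, beside 5.59% of all genes, 3.67% higher and 1.92% lower). COL17A1, a transmembrane collagen of hemidesmosomes, was at 88.2%, 91.9%, 91.3% and 88.7% in MET_P and at 86.98%, 86.6%, 84.6% and 86.7% in MET_noP. All MET_P libraries were above all MET_noP libraries, by 3.80 points on average (limma p = 0.0125, adjusted p = 0.81, exact permutation p = 0.0286, the smallest that 4 against 4 libraries allow). The CON libraries of COL17A1, 85.5% to 91.9%, overlapped with both groups.

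ITGA4 had 52.5%, 50.8%, 52.3% and 51.7% in MET_P and 46.4%, 48.6%, 40.0% and 45.2% in MET_noP. It was higher in MET_P by 6.77 points, without overlap of the groups (limma p = 0.0168, adjusted p = 0.81, exact permutation p = 0.0286). In the low stretch of 5 sites described above, MET_P was at 25.7% ± 1.80 and MET_noP at 17.9% ± 3.07, with CON_P at 19.97% ± 2.86 and CON_noP at 23.7% ± 2.39. In the high stretch of 3 sites MET_P was at 95.4% ± 2.25 and MET_noP at 90.2% ± 7.04. In the control diet the difference had the other sign (48.05% in CON_P and 49.4% in CON_noP). ITGA4 had the lowest interaction p of the members, a difference of 8.13 points between the 2 contrasts (limma adjusted p = 0.893).

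COL15A1, a collagen that joins the basement membrane to the tissue below it, was 6.89 points higher in MET_P (91.7% ± 1.91 against 84.8% ± 5.62; limma p = 0.0205, adjusted p = 0.824, exact permutation p = 0.0571). Its groups overlapped, and library 29 of MET_noP, at 77.1%, was the lowest of the 16. MMP11, or stromelysin 3, was at 73.9% ± 3.34 in MET_P and 67.1% ± 4.62 in MET_noP, where its 4 libraries did not reach those of MET_P (limma p = 0.0398, adjusted p = 0.882, exact permutation p = 0.0286). ITGA1, the collagen receptor chain, was the 1 member lower in MET_P, by 3.64 points without overlap (limma p = 0.0239, adjusted p = 0.86, exact permutation p = 0.0286). It had 76.2%, 79.8%, 77.6% and 78.6% in MET_P and 81.5%, 80.3%, 81.9% and 83.0% in MET_noP. A single site, at position 26177624 of chromosome 20, differed by 13.8 points, and the difference of ITGA1 without it was 1.62 points. With TIMP3, 5 of the 87 members did not overlap between MET_P and MET_noP (5.75%, beside 3.44% of all genes). TIMP3, the matrix-bound inhibitor, was 7.54 points higher in MET_P, the largest difference of a member in this comparison. The count of 5 at the unadjusted p was 3 without library 29.

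**Figure D4:**
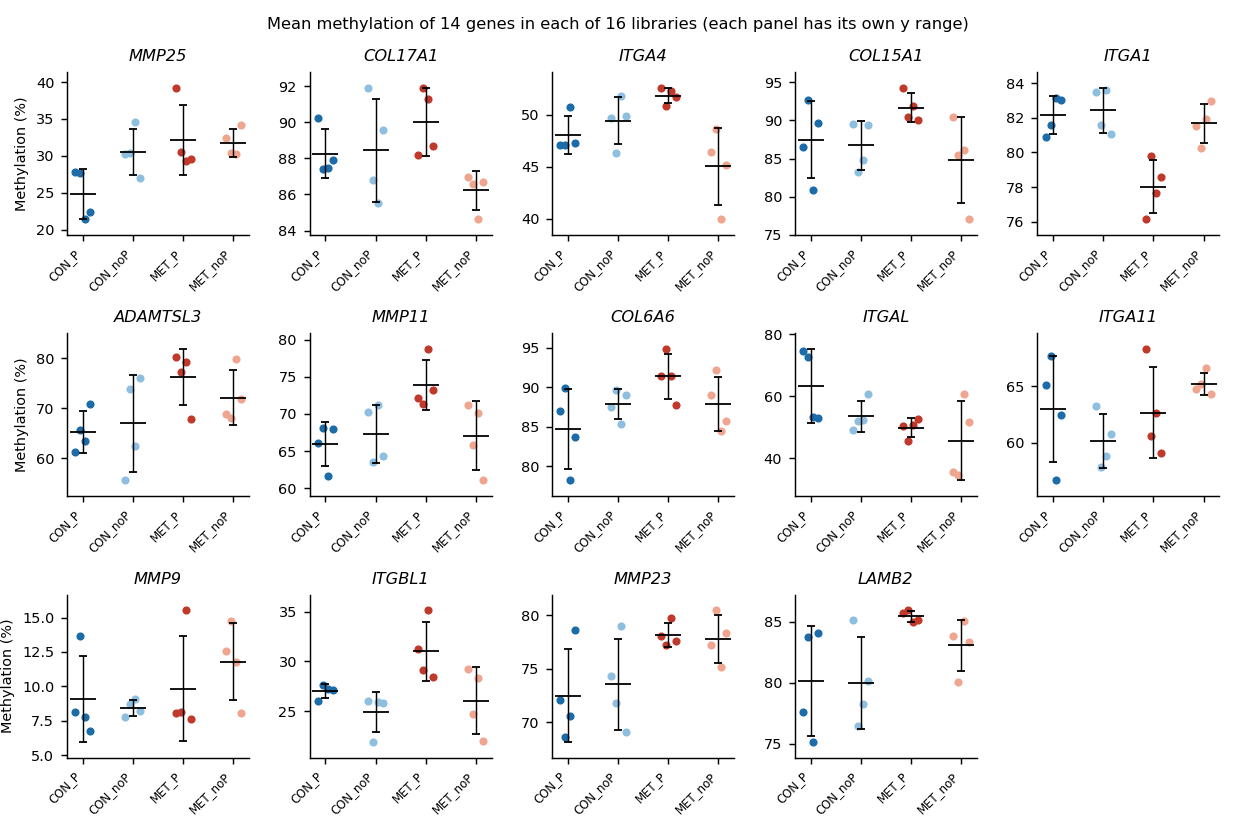
Mean methylation (y axis, percent; each panel has its own range) of the 14 genes with the lowest unadjusted p in at least 1 comparison, in the 4 groups (x axis). Points are libraries, the black bar is the group mean and the whiskers are its SD (n = 4). In MET_P, LAMB2 lies between 85.0% and 85.9% and ITGA1 between 76.2% and 79.8%, apart from the 4 CON_P libraries.

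The comparison of RPM with the control diet in cows that became pregnant gave the most members at an unadjusted p under 0.05. They were 10 of 87 (11.5%, beside 7.26% of all genes), 8 of them higher in MET_P (9.20%, beside 5.47%) and 2 lower (2.30%, beside 1.79%). The median difference was 0.451 points, beside 0.527 points over all genes, and 74 members differed by less than 5 points. The largest positive difference was that of ADAMTSL3, a matrix protein of the ADAMTS-like group, with 80.3%, 77.3%, 79.2% and 67.9% in MET_P and 61.2%, 65.5%, 63.4% and 70.8% in CON_P. The groups overlapped in 1 library each, with 10.9 points between their means (limma p = 0.0102, adjusted p = 0.666, exact permutation p = 0.0571). ADAMTSL3 was measured at 4 sites, and without the site at position 24163092 of chromosome 21, which was 36.3 points higher in MET_P, the difference was 2.48 points.

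MMP11 was higher in MET_P than in CON_P by 7.88 points and its groups did not overlap (72.2%, 71.3%, 78.7% and 73.2% against 66.2%, 68.0%, 61.7% and 68.0%; limma p = 0.0118, adjusted p = 0.666, exact permutation p = 0.0286). The 3 sites from 71235132 to 71235165 of chromosome 17 carried it, with 48.1% ± 7.39 in MET_P and 30.5% ± 5.92 in CON_P, while the other 4 sites, about 3 kb away, were at 93.1% and 92.6%. COL6A6, a collagen VI chain, was 6.65 points higher in MET_P (91.4% ± 2.89 against 84.7% ± 5.04; limma p = 0.0284, adjusted p = 0.68, exact permutation p = 0.0571). Its first 6 sites were at 85.2% ± 5.75 and 71.3% ± 8.94 and its other 7 sites at 96.6% and 96.2%.

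LAMB2, the laminin beta 2 chain, was 5.27 points higher in MET_P, with 85.7%, 85.9%, 85.0% and 85.1% against 77.6%, 83.8%, 75.2% and 84.1% in CON_P (limma p = 0.0355, adjusted p = 0.68, exact permutation p = 0.0286). A stretch of 4 sites from 50884294 to 50884369 of chromosome 22 was at 84.3%, 82.5%, 83.6% and 83.7% in MET_P and at 57.0%, 70.2%, 46.6% and 82.1% in CON_P. The SD of the MET_P libraries there was 0.756, whereas the SD was 15.5 in CON_P, 12.5 in CON_noP and 10.1 in MET_noP. The part of sequencing depth, which differed between groups, was not tested. The next 2 stretches of LAMB2, with 13 sites, had stretch means of 94.2% to 97.5% in every group. Group means of their single sites ran from 82.6% to 100%. The lowest was at position 50896716, with 82.6% in MET_P, 84.4% in CON_noP, 90.7% in CON_P and 99.3% in MET_noP.

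Both members lower in MET_P were integrin alpha subunits. ITGA1 was 4.14 points lower than in CON_P (78.0% ± 1.53 against 82.2% ± 1.10; limma p = 0.0167, adjusted p = 0.673, exact permutation p = 0.0286). The site at 26177624 again held most of this difference, at 78.8% ± 14.02 in MET_P and 98.8% ± 2.50 in CON_P, and without it 0.980 points remained. ITGAL, the alpha chain of the leukocyte integrin LFA-1, was 13.4 points lower in MET_P (50.4%, 45.5%, 50.7% and 52.8% against 74.5%, 72.7%, 53.1% and 52.8%; limma p = 0.0421, adjusted p = 0.68, exact permutation p = 0.0286). The highest MET_P library and the lowest CON_P library were both at 52.8%, and libraries 14 and 18 of CON_P held the highest values. The leukocyte list was at 57.9% ± 0.569 in MET_P and 56.7% ± 2.87 in CON_P, where it was highest in library 14 (60.7%), and 3 of its 21 genes (CD247, LAPTM5 and SPI1) had an unadjusted p under 0.05 (14.3%, beside 7.26% of all genes), 2 higher and 1 lower in MET_P. The part of leukocyte content in ITGAL was not tested.

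The other members at an unadjusted p under 0.05 in this comparison were MMP25, MMP23, ADAMTS19 and ITGA10, each higher in MET_P, by 7.31, 5.63, 6.11 and 1.56 points. They are named after their values were seen. In all, 8 of the 87 members did not overlap between MET_P and CON_P (9.20%, beside 3.81% of all genes): ITGA1, ITGA4, ITGA7, ITGAL, ITGBL1, LAMB2, MMP11 and MMP25. With the libraries centred on the same median, 12 members had an unadjusted p under 0.05, 7 higher and 5 lower. The count of 10 was 5 without library 15, 4 without library 19 and 6 without library 31, all of MET_P. Among the CON_P libraries, it was 7 without library 14 or 26, 8 without library 18 and 13 without library 30.

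**Figure D5:**
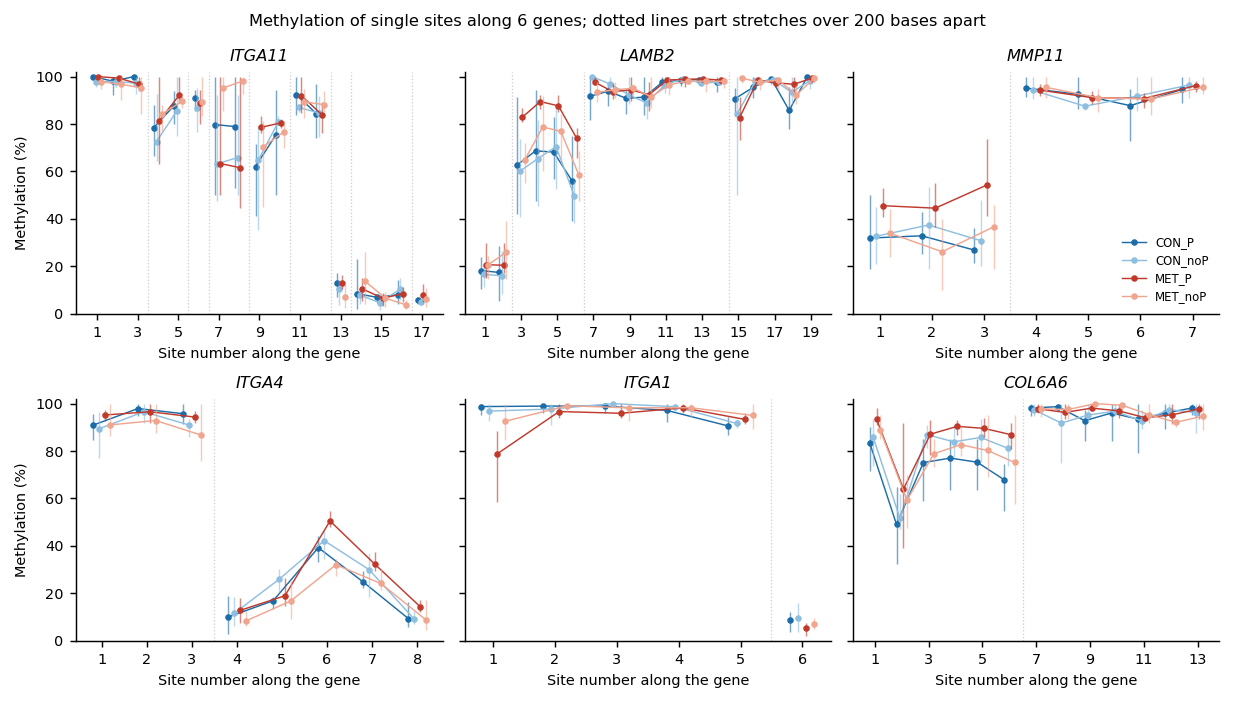
Methylation (y axis, percent) of single sites in coordinate order (x axis, site number) along 6 genes. Points are group means of 4 libraries, vertical lines run from the lowest to the highest library, and dotted lines part stretches that are more than 200 bases apart. In MMP11, MET_P lies at 48.1% and CON_P at 30.5% over the first 3 sites, and at 93.1% and 92.6% over the other 4.

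In cows that did not become pregnant, 2 members had an unadjusted p under 0.05 between RPM and control, both higher in MET_noP (2.30% of members, beside 6.39% of all genes, 4.75% higher and 1.64% lower). ITGA11 had 64.8%, 65.2%, 66.6% and 64.3% in MET_noP and 63.2%, 57.8%, 58.9% and 60.7% in CON_noP. It was 5.04 points higher without overlap (limma p = 0.0302, adjusted p = 0.748, exact permutation p = 0.0286), and was the only member whose groups did not overlap (1 of 87, beside 3.75% of all genes). The 2 sites from 15153080 to 15153095 were at 89.3%, 100%, 97.5% and 100% in MET_noP and at 92.3%, 65.0%, 51.7% and 49.3% in CON_noP. In the pregnant groups the same sites ranged from 48.1% to 100%, so that single libraries there were as high as MET_noP. The CON_P libraries had 96.7%, 100%, 69.2% and 51.6%, and the MET_P libraries had 100%, 53.0%, 48.1% and 48.6%. The part of sequence differences between cows in these values was not tested. The mean of the stretch was 96.7% in MET_noP, 79.4% in CON_P, 64.6% in CON_noP and 62.4% in MET_P, so MET_noP also lay above MET_P. The highest group mean of a low stretch of ITGA11 was 12.8%. MMP9 was higher by 3.35 points (11.8% ± 2.80 against 8.44% ± 0.558; limma p = 0.0427, adjusted p = 0.757, exact permutation p = 0.114) and 1 MET_noP library, at 8.05%, lay within CON_noP. When the 5 sites were summarised by their median, MMP9 differed by -0.0205 points, so its direction turned. With centred libraries the unadjusted p was 0.0915 for ITGA11 and 0.108 for MMP9, and the 2 members under 0.05 were then lower in MET_noP. The count of 2 was 1 without library 13, 16, 24 or 28 and 4 without library 17.

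Over both diets, ITGBL1 was the 1 member with an unadjusted p under 0.05 between P and noP (1.15%, beside 3.35% of all genes, 2.51% higher and 0.837% lower in P). Its 8 P libraries had 26.03% to 35.1% and its 8 noP libraries 21.9% to 29.2%, a difference of 3.53 points (limma p = 0.0197, adjusted p = 0.999, exact permutation within diets p = 0.00327, not adjusted for the 87 members). The difference had the same sign in both diets, 2.12 points in CON and 4.93 points in MET. The stretch of 10 sites from 77892376 to 77892577 of chromosome 12 was at 19.99% ± 4.13 in MET_P, 15.8% ± 4.00 in CON_P, 14.6% ± 3.06 in CON_noP and 13.9% ± 3.80 in MET_noP. The last 2 sites of ITGBL1 had the other order, with 86.2% in MET_P and 88.5% in MET_noP. With centred libraries ITGBL1 was higher in P and ITGA1 lower at an unadjusted p under 0.05. The count of 1 was 2 or 3 without any 1 of libraries 12, 13, 14, 15, 16, 18, 24, 25, 26, 28 and 30.

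Over both outcomes, 9 members had an unadjusted p under 0.05 between MET and CON (10.3%, beside 8.76% of all genes), 7 higher in MET (8.05%, beside 7.34%) and 2 lower (2.30%, beside 1.42%). The median difference was 0.582 points over the members and 0.555 over all genes. MMP23 had the lowest p of the members (limma p = 0.00829, adjusted p = 0.505, exact permutation p = 0.0110). It was 4.94 points higher in MET, with 75.1% to 80.5% in the 8 MET libraries and 68.7% to 79.0% in the 8 CON libraries. LAMB2 was higher by 4.17 points (limma p = 0.0139, adjusted p = 0.505, exact permutation p = 0.0171) and ADAMTSL3 by 8.03 points (limma p = 0.0202, adjusted p = 0.505, exact permutation p = 0.0290). ITGA1 was 2.45 points lower (limma p = 0.0170, adjusted p = 0.505, exact permutation p = 0.00857), of which 0.519 points remained without the site at 26177624. ITGAL was 10.6 points lower (limma p = 0.0242, adjusted p = 0.505, exact permutation p = 0.0416). The other 4, named after their values were seen, were ADAMTS19, ADAMTS8, LAMB1 and MMP25, each higher in MET. No member kept the 8 MET libraries apart from the 8 CON libraries, nor did more than 2 of all genes (0.0229%). With centred libraries 7 members had an unadjusted p under 0.05, 4 higher and 3 lower. The count of 9 was 14 without library 12 and 5 without library 15 or 26.

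In the interaction, 4 members had an unadjusted p under 0.05 (4.60%, beside 5.4% of all genes, 2.55% positive and 2.86% negative): ITGA4 and MMP11, and ADAMTS17 and COL14A1, whose difference between P and noP was lower in MET than in CON. ADAMTS17 and COL14A1 are named after their values were seen. ADAMTS17 had a mean of 79.5% in CON_P and 76.03% in CON_noP, and of 76.2% in MET_P and 78.3% in MET_noP, and COL14A1, a collagen on the surface of fibrils, at 92.2%, 90.4%, 89.8% and 92.0%. With centred libraries 5 members passed that p, all with a positive interaction. The count of 4 was 2 without library 12, 8 without library 17 and 1 without library 29.

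By family, no gene passed an adjusted p of 0.05, and no family was tested as a set. The 8 fibrillar collagens had no member with an unadjusted p under 0.05 in any comparison, and their median difference was between -0.0983 and 0.738 points in the 4 pairwise comparisons. The 2 TIMP genes had none either. Of the 12 MMP genes, 3 (MMP11, MMP23 and MMP25) had an unadjusted p under 0.05 between MET_P and CON_P, all higher in MET_P (25%, beside 7.26% of all genes, 5.47% higher), while 6 of the 12 were higher and the family median differed by -0.0887 points. All 5 ADAMTS-like genes were higher in MET_P than in CON_P and all 5 were lower in CON_P than in CON_noP, with medians of 1.479 and -1.61 points, and ADAMTSL3 alone had an unadjusted p under 0.05. The 7 laminins were all higher in CON_P than in CON_noP, with a median of 1.27 points, and 2 of 7 were higher in MET_P than in CON_P, with a median of -0.672 points. All 4 basement membrane collagens were higher in MET_P than in CON_P, with a median of 0.602 points. These comparisons share the CON_P libraries, and each median stands beside 0.438 and 0.527 points over all genes. Of all genes, 59.2% were higher in CON_P than in CON_noP and 60.1% were higher in MET_P than in CON_P.

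Genes that work on or beside the same matrix had no adjusted p under 0.05 either. Of 43 other matrix proteins with a gene mean, such as proteoglycans and glycoproteins, 1, 2, 2 and 3 had an unadjusted p under 0.05 in the 4 pairwise comparisons in the order above (2.33%, 4.65%, 4.65% and 6.98%, beside 3.5%, 5.59%, 7.26% and 6.39% of all genes). Of 19 collagen-processing and crosslinking genes the counts were 0, 2, 3 and 2 (0%, 10.5%, 15.8% and 10.5%). Of 29 genes that link integrins to the cytoskeleton they were 2, 1, 2 and 3 (6.90%, 3.45%, 6.90% and 10.3%), and of 15 other matrix-cleaving proteases and their inhibitors 0, 0, 1 and 0 (0%, 0%, 6.67% and 0%). In the linkage list 24 of 29 genes were higher in MET_P than in CON_P, with a median of 1.49 points, beside 60.1% of all genes and a median of 0.527.

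At single sites, 80, 98, 117 and 109 of the 1775 sites had an unadjusted p under 0.05 in the 4 pairwise comparisons (4.51%, 5.52%, 6.59% and 6.14%, beside 3.93%, 5.12%, 5.83% and 5.13% of all 199395 sites), in 34 to 46 of the 94 genes. None passed an adjusted p of 0.05 over all sites, and neither did any other site in those comparisons (limma, 0% called). The groups did not overlap at 42, 52, 62 and 46 member sites, which is 2.37%, 2.93%, 3.49% and 2.59%, beside 1.99%, 2.9%, 3.09% and 2.75% of all sites. Over both diets or outcomes, 67 member sites (3.77%) had an unadjusted p under 0.05 between P and noP and 94 (5.30%) between MET and CON, beside 3.83% and 6.06% of all sites. No member site was called there or kept its groups apart, while 0.000502% of all sites were called between P and noP, and 0.00853% and 0.0231% did not overlap. In the interaction 115 member sites (6.48%, beside 5.25%) had an unadjusted p under 0.05 and none was called, beside 0.001% of all sites. The count of 80 was 123 and that of 117 was 187 without library 30 of CON_P.

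The member sites with the lowest p were mostly sites near full methylation. Of the 24 sites named by the rule, 19 differed by less than 10 points and 9 were at 100% in all 4 libraries of a group. The lowest adjusted p of a member was 0.160, at position 50896716 of chromosome 22 in LAMB2. It had 73.2% to 91.4% in MET_P and 97.4% to 100% in MET_noP (16.7 points lower, limma p = 6.15e-05, exact permutation p = 0.0286). The CON_noP libraries at this site ranged from 50% to 100%, more widely than either of these groups. In CON_P against CON_noP, a site of ADAMTS18 (chromosome 18, position 4537241) was at 100% in all CON_P libraries and at 89.5% to 95% in CON_noP (adjusted p = 0.181). A COL4A2 site (chromosome 12, position 85106460) was 11.9 points lower in CON_P, with 82.6% to 90% against 96.9% to 100% (adjusted p = 0.233). An ADAMTS17 site (chromosome 21, position 6403726) was near 95% in CON_P (94.9% ± 2.13) and in MET_noP (95.1% ± 2.08) and at 99.6% ± 0.862 in CON_noP, so it was among the leading sites of both comparisons with CON_noP.

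Other leading sites were in COL27A1 (chromosome 8, position 103479957) and ITGA6 (chromosome 2, position 24131062). Both were at 100% in every MET_P library and 6.23 and 6.01 points lower in MET_noP (adjusted p = 0.199 each). In MET_P against CON_P they were in COL14A1 (chromosome 14, position 81519247; 91.9% to 98.3% against 100%), ITGA1 (the site at 26177624) and MMP15 (chromosome 18, position 25958874; 100% against 85.7% to 97.5%), with adjusted p from 0.430 to 0.469. In MET_noP against CON_noP they were a second LAMB2 site (position 50886661; 89.3% to 97.8% against 100%; adjusted p = 0.241), an ADAMTS14 site (chromosome 28, position 26918512; 91.7% to 97.1% against 100%; adjusted p = 0.305) and a COL4A1 site (chromosome 12, position 84908967; 97.9% to 100% against 84.0% to 95.2%; adjusted p = 0.416).

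Sites at an intermediate level differed by more points. The following were named after their values were seen, as the non-overlapping sites with the largest differences. In MET_noP against CON_noP, the ITGA11 site at 15153095 was 32.3 points higher (adjusted p = 0.433) and a COL5A1 site at 105393696 was 31.8 points higher, with 50.0% to 78.6% against 22.7% to 35.5% (adjusted p = 0.894). An MMP11 site at 71235165 was 27.5 points higher in MET_P than in CON_P (adjusted p = 0.827), and a LAMB1 site at position 49060854 of chromosome 4 was 26.2 points higher. An ADAMTS17 site at 6421913 was at 57.8% in MET_P, against 83.8% in CON_P and 78.0% in MET_noP, and did not overlap with either. An ADAMTS13 site at 104329653 was at 16.3% in MET_P and 39.0% in MET_noP. In CON_P against CON_noP the largest was a COL13A1 site (chromosome 28, position 26132700), 24.2 points higher in CON_P.

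Of the members the study names, ITGA11, COL17A1, ITGA4 and ITGBL1 are described above. The study chose the members it names on these libraries, so they are not independent evidence. It called single CpG sites by logistic regression at an adjusted p, whereas most values below are means over all sites of a gene. A small difference of a gene mean therefore does not speak to its result at a site. COL5A1 differed by 1.97, -0.209, -1.51 and 0.671 points in the 4 pairwise comparisons in the order above, COL4A2 by -0.259, -0.58, 0.917 and 1.24 points, and COL8A1 by -0.663, 1.32, 0.223 and -1.76 points. MMP16 was 4.36 points lower in MET_P than in CON_P (limma p = 0.0567, exact permutation p = 0.0857), and ITGA9, a tenascin receptor chain, was 4.70 points higher (limma p = 0.0785, exact permutation p = 0.114). Between MET_P and MET_noP, MMP16 differed by -3.23, ITGA9 by 1.51, ITGB4 by 3.67 and ITGA11 by -2.55 points, each with an exact permutation p of 0.114 or more. Between MET_P and CON_P, ITGB4 was 7.37 points higher in MET_P (64.02% against 56.7%, limma p = 0.0839, exact permutation p = 0.114), and its first stretches, of 3 and 15 sites, were at 44.4% and 57.1% in MET_P and at 26.4% and 38.1% in CON_P. The gene mean of COL5A1, over 255 sites, differed by 0.671 points between MET_noP and CON_noP, where its site at 105393696 differed by 31.8 points.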

How the data were processed

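The deposited values are percent methylation per cytosine position and library. To make them, the authors used Trim Galore for trimming, Bismark with ARS-UCD1.2 for alignment and SAMtools to join the 3 runs of each library. SeqMonk then gave the level at positions with enough reads, and positions at zero were dropped. Read counts were not used here, so depth per site is unknown and a site covered by few reads moves in coarse steps. Sequence differences between cows at a site were not examined either. By the paper's averages, raw reads and mapped CpGs per library were highest in MET_P.

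Columns were assigned to groups by the group name in the header, and each of the 16 libraries was 1 replicate. Percentages (mean over the sites of a gene with 2 or more, or single sites) were transformed to log2((percent + 1)/(100 - percent + 1)) and tested with limma 3.58.1 in R 4.3.3 over all 8719 genes or 199395 sites, with Benjamini-Hochberg adjustment at 0.05. Pairwise comparisons used 8 libraries, pooled ones and the interaction all 16. Single values were also compared by two-sided exact permutation tests. P-values measure the spread between libraries, which may be technical. The fits were tested on simulated data. Tables and figures were made with Python 3.11.15, pandas 2.3.3, numpy 2.4.6 and matplotlib 3.10.9.

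Members and lists were chosen with earlier results of these data known. Named were the up to 3 members with the lowest p under 0.05 in each direction of a comparison, the lowest and highest member of each family with 5 or more sites, the widest in site means, the 10 with most sites, those the study names, and the up to 3 leading non-overlapping sites in each direction of a pairwise comparison. Gene names are those of the deposited table. Alternatives were other scales, offsets, site filters, centring, 1 model of all libraries, a replicate block and each library left out.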

Additional observations from a re-analysis of the deposited data

Results flagged for a closer look

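In 9 of 180 groups of 4 libraries (45 named genes), 1 library lay far from the other 3, by a test that flags about 1 in 20 groups by chance. Library 27 of MET_P was high in ADAMTS17 (79.4%, the others 74.9% to 75.6%) and in MMP9 (15.5%, the others 7.63% to 8.12%). Library 15 of MET_P was high in MMP16 (81.8%, the others 75.3% to 76.3%) and in MMP25 (39.2%, the others 29.3% to 30.5%). Library 16 of CON_noP was low in ITGBL1 (21.9%, the others 25.8% to 26.01%) and in LAMA1 (85.9%, the others 92.5% to 93.5%). COL26A1 was low in library 17 of MET_noP (51.2%, the others 54.5% to 55.0%), COL8A1 was low in library 25 of MET_noP (92.7%, the others 95.7% to 95.9%), and ITGA4 was high in library 26 of CON_P (50.8%, the others 47.1% to 47.2%). The cause of these values was not tested. No interaction of diet and outcome passed the threshold in a member.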

How the results depend on the processing

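At the gene level no member passed an adjusted p of 0.05 under any alternative or without any single library, so leaving out libraries gave 0 in each comparison. Among sites, the count stayed at 0 except with an offset of 0.1 percentage points, which gave 1 member site in CON_P against CON_noP, 4 in MET_P against MET_noP, 5 in MET_P against CON_P and 2 in MET_noP against CON_noP (of 227, 282, 277 and 225 sites in all). All 12 were at 100% in every library of a group, where the smaller offset widens the log-ratio, and they differed by 2.12 to 7.82 points. The counts at an unadjusted p under 0.05 over the other settings with all libraries were 0 to 2, 3 to 8, 7 to 13 and 1 to 3 genes in those 4 comparisons (1, 5, 10 and 2 as reported), 1 to 3 between P and noP, 5 to 10 between MET and CON and 3 to 5 in the interaction. Each difference of a gene named for its low p kept its sign without any 1 library and without the site of its largest difference, a setting chosen after seeing the data. The difference of MMP9 between MET_noP and CON_noP was -0.0205 points with the median over sites. Unadjusted counts under all of these settings are given without the share of all genes. Deviations of libraries in the same set of consecutive library numbers had correlations of -0.11 to 0.13. Between different sets they were -0.26 to 0.26. Such a correlation does not decide whether the libraries of a set share a shift in level, which was not tested. A replicate block by set gave 0 member calls in every comparison. Depth per site is unknown, which limits every single-site value.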
